A study of Caenorhabditis elegans with 6 samples.

Results

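Purine nucleotides, the building blocks of ATP, GTP and nucleic acids, are assembled de novo on ribose phosphate through a chain of enzymes that ends in inosine monophosphate (IMP). IMP is then turned into AMP or GMP. Free purine bases are returned to nucleotides by salvage enzymes, and surplus bases are oxidised through xanthine to uric acid. Caffeine is a methylxanthine, a methylated relative of these bases. The 8 genes described here are ppat-1, adsl-1 and atic-1 of the route to IMP, adss-1 and gmps-1 of the AMP and GMP branches, hprt-1 and aprt-1 of salvage, and xdh-1 of xanthine oxidation. They were chosen by WormBase symbol, and all 8 were found among 46904 gene IDs and passed the filter on low counts, as did 14200 genes in all.

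RNA was measured in whole bodies of the nematode Caenorhabditis elegans, strain and genotype N2, the standard wild type, as hermaphrodites on day 3 of adulthood. The control group of 3 libraries had 0 mM caffeine in its agar plates and the caffeine group of 3 libraries had 10 mM, each for 72 h from the last larval stage at 25 °C on plates with OP50, the usual bacterial food. Per the labels, each library was a biological replicate of about 300 animals, so values are means over pooled worms and all their tissues. Fewer cells of a type and less RNA per cell cannot be told apart in such samples.

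Libraries held between 40417780 and 40746556 counts, so depth was nearly equal between groups. Of the 14200 genes tested, 3450 (24.3%) were called, meaning a Benjamini-Hochberg adjusted p under 0.05 for caffeine against control in the quasi-likelihood test of edgeR, with 13.8% higher and 10.5% lower. These shares are the background for the counts below. Levels are given as CPM, library-size-scaled counts with TMM factors applied. Markers of the expected tissues were all detected. Summed over 12 germline markers, caffeine libraries held between 15475 and 20396 CPM and controls between 18985 and 20140, so the groups overlapped. Of the 12, 0 were called higher and 1 lower. Each log2 fold change lay below 0, from -0.26 to -0.02, with a median of -0.19. Summed intestinal markers (7 genes) ran from 1646 to 1788 with caffeine and from 1330 to 1596 in control, with 2 called higher and 2 lower. The largest part of this sum was asp-1, at 934 CPM in control and 1198 with caffeine. The median log2 fold change of the 7 was -0.04. Summed muscle markers (6 genes) ran from 451 to 604 against 353 to 391, with 2 called higher and 0 lower. Summed epidermal markers (6 genes) ran from 261 to 342 against 94.8 to 165, with 2 called higher and 1 lower. Summed neuronal markers (6 genes) overlapped between groups, at 222 to 229 and 219 to 228, with 2 called higher and 1 lower. Most of this sum was snb-1, at 167 CPM in control and 172 with caffeine, and the median log2 fold change was 0.27. Summed embryonic markers (6 genes) ran from 182 to 189 with caffeine and from 195 to 206 in control, with 0 called. Most of this sum was pal-1, at 180 CPM in control and 167 with caffeine. The median log2 fold change of the 5 tested was 0.10. Of 9 sperm markers, 8 passed the filter, and the sum over all 9 was highest in control library 2, at 21.96 against 3.35 to 7.94 in all other libraries, with 1 called lower. The part of these marker differences in the results below was not tested.

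With caffeine, 3 of the 8 purine genes rose and 0 passed the test for a fall. The rises were in ppat-1 and atic-1, which open and close the route to IMP after the ribose phosphate donor is made, and in the salvage gene hprt-1. The share of 3 in 8 (37.5%) compares with 24.3% called among all genes in either direction and 13.8% called higher. At an unadjusted p under 0.05, 4 members were higher and 1 lower, and DESeq2 called 3 higher and 1 lower, the last being xdh-1. Over all genes DESeq2 called 25.0% of 15495, with 1988 higher and 1889 lower. The share of all genes at an unadjusted p under 0.05 is not given here. Counts at that threshold, here and below, thus have no background beside them. Groups did not overlap in 6 members, 5 with caffeine above and 1 below, where 44.3% of all tested genes did not overlap (23.3% with caffeine above and 20.9% below). The 5 were ppat-1, atic-1 and hprt-1 with adsl-1 (log2 fold change 0.02) and aprt-1 (0.17), the last 2 not called. The 1 below was gmps-1 (-0.06), also not called. The median log2 fold change of the 8 genes was 0.17, beside 0.00 over all tested genes. As a share of all counts the 8 genes took between 0.0614% and 0.0631% in control and between 0.0702% and 0.0768% with caffeine. The largest part of this sum was adss-1, at 227 CPM in control and 256 with caffeine. Next came gmps-1, at 185 and 178, and neither of these genes was called.

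**Figure D1:**
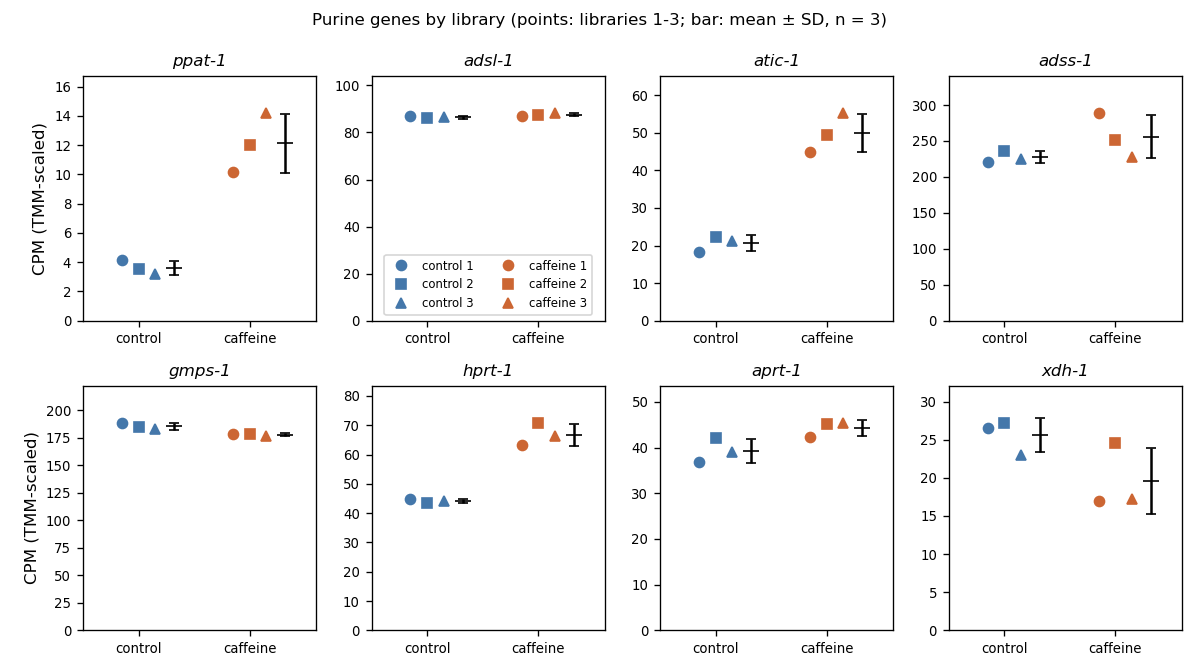
TMM-scaled CPM of the 8 purine genes (vertical axes, each from 0) in 3 control and 3 caffeine libraries. Points are libraries and the black marks are the mean ± SD of 3. Caffeine libraries of ppat-1, atic-1 and hprt-1 lie well above all controls, adsl-1 is level, and xdh-1 is low in caffeine libraries 1 and 3 but not in library 2.

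The route to IMP starts with ppat-1 (chromosome III, 4689280 to 4692171, plus strand, WBcel235), which encodes glutamine phosphoribosylpyrophosphate amidotransferase, the enzyme of the committed step. It had 167, 141 and 128 expected counts in control libraries 1, 2 and 3. In caffeine libraries 1, 2 and 3 it had 395, 521 and 584. Every caffeine library stood far above every control, and caffeine library 1 was the lowest of its group. The level went from 3.63 ± 0.474 to 12.1 ± 2.0 CPM (± SD, n = 3 each), a 3.34-fold rise (95% interval 2.61 to 4.28). The log2 fold change was 1.74 (SE 0.16) with an edgeR adjusted p of 0.000203. This fold exceeded that of 97.7% of tested genes. Exons of ppat-1 share 74 bases with nifk-1 on the other strand, and whether strand was used in counting is not given in the sources used here. nifk-1 was not called, at a log2 fold change of -0.18.

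Adenylosuccinate lyase, encoded by adsl-1 (chromosome I, 7246904 to 7248689, minus strand), acts both late in the route to IMP and again in the branch to AMP. Its expected counts were 3510, 3413 and 3457 in control and 3379, 3786 and 3631 with caffeine. After scaling the 6 libraries were nearly level, between 85.9 and 88.1 CPM. On the log2 scale the difference was 0.02, with a 95% interval from -0.09 to 0.12 and an edgeR adjusted p of 0.794. As folds the bounds of this interval are 0.941 and 1.09.

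The last steps to IMP are carried by the bifunctional enzyme of atic-1 (chromosome IV, 7882026 to 7900257, plus strand), a formyltransferase joined to the IMP cyclohydrolase that closes the ring. Control libraries had 736, 888 and 851 expected counts and caffeine libraries had 1746, 2147 and 2273. The groups were again far apart, and caffeine library 1 was again the lowest of its group. CPM went from 20.6 ± 2.14 to 49.9 ± 5.09 (± SD, n = 3 each), a 2.42-fold rise (95% interval 2.05 to 2.86). Its log2 fold change was 1.28 (SE 0.10) and the edgeR adjusted p 0.00013. The intervals of ppat-1 and atic-1 overlap on the log2 scale, and the difference between these folds was not tested. Exons of atic-1 share 55 bases with arp-11 on the other strand, which was not called (log2 fold change 0.02), and ilys-4 lies in an atic-1 intron on the other strand. ilys-4 itself rose by 0.67 on the log2 scale, to 3.78 ± 0.737 CPM with caffeine (mean ± SD, n = 3).

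Count ratios within a library do not depend on scaling. The ratio of atic-1 to adsl-1 counts was 0.210, 0.260 and 0.246 in control libraries and 0.517, 0.567 and 0.626 with caffeine. The ratio of ppat-1 to adsl-1 counts lay between 0.0370 and 0.0476 in control and between 0.117 and 0.161 with caffeine. Both ratios were thus higher in every caffeine library than in any control library, while adsl-1 was level.

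Beside the 3 members, 3 further genes of the route carry an enzyme symbol in the annotation. pfas-1, which encodes the synthase that follows glycinamide formylation, rose from 35.6 ± 0.474 to 65.4 ± 1.13 CPM (± SD, n = 3 each). Its log2 fold change was 0.88 (SE 0.05), with an edgeR adjusted p of 3.03e-05. The 3 caffeine libraries were tightly grouped at 2495, 2835 and 2743 expected counts, against 1415, 1416 and 1440 in control. paic-1, which encodes the carboxylase and synthetase of later steps, rose from 16.4 ± 1.25 to 30.2 ± 0.886 CPM (± SD, n = 3 each), with a log2 fold change of 0.88 (SE 0.08). prps-1, which makes the phosphoribosyl pyrophosphate that feeds both synthesis and salvage, was not called, with a log2 fold change of 0.11 and a 95% interval from -0.03 to 0.25. Of these 6 genes of the route, all with an enzyme symbol, 4 rose, 2 were not called and 0 fell. Over all tested genes the shares were 13.8% higher and 10.5% lower.

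**Figure D2:**
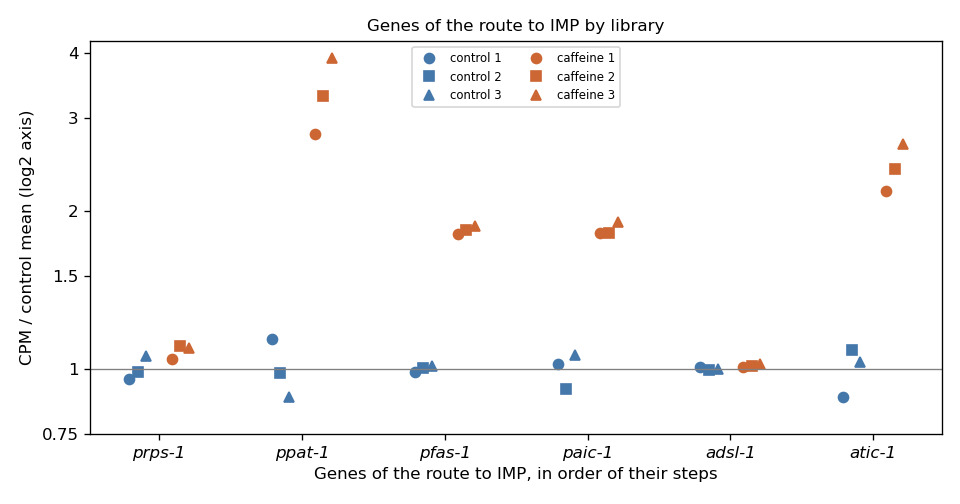
CPM of each library divided by the control mean of the gene (vertical log2 axis) for 6 genes of the route to IMP in the order of their steps. Caffeine libraries reach 2.81 to 3.91 for ppat-1, 1.81 to 1.87 for pfas-1, 1.81 to 1.90 for paic-1 and 2.18 to 2.68 for atic-1, but only 1.04 to 1.10 for prps-1 and 1.01 to 1.02 for adsl-1.

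F38B6.4 and T22D1.3 were entered on the list of other purine synthesis genes as a trifunctional enzyme (GARS-AIRS-GART) and as IMP dehydrogenase. The annotation used here gives them no enzyme symbol, so these roles come from the list alone. F38B6.4 rose from 11.7 ± 0.426 to 19.9 ± 2.72 CPM (± SD, n = 3 each), with a log2 fold change of 0.76 (SE 0.11). T22D1.3 was not called (log2 fold change 0.04, 95% interval -0.06 to 0.15). The list as a whole had 3 of 5 genes higher and 0 lower, with a median log2 fold change of 0.76. Among all tested genes 13.8% were higher and 10.5% lower. The rises of ppat-1, atic-1, pfas-1, paic-1 and F38B6.4 each passed the test in all 12 alternative settings, leaving out any library included.

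IMP leaves the route through 2 branches. Adenylosuccinate synthetase, encoded by adss-1 (chromosome V, 4818763 to 4823423, minus strand), starts the branch to AMP. It was the most abundant of the 8 genes per kilobase of exon, with 8898, 9386 and 9003 expected counts in control and 11190, 10912 and 9399 with caffeine. On the CPM scale caffeine libraries 1 and 2 (288 and 252) lay above all controls, but caffeine library 3 (228) lay among them, so the groups overlapped. The log2 fold change of 0.17 (95% interval -0.02 to 0.37) was not called, with an edgeR adjusted p of 0.171. Within the caffeine group adss-1 ran opposite to ppat-1 and atic-1, highest in library 1 and lowest in library 3.

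GMP synthetase, encoded by gmps-1 (chromosome II, 10863679 to 10868720, minus strand), completes the branch to GMP. Its CPM was 189, 185 and 183 in control and 178, 179 and 176 with caffeine, so caffeine libraries lay slightly below. Its log2 fold change was -0.06, with a 95% interval from -0.17 to 0.04 and an edgeR adjusted p of 0.354, and the gene was not called. Neither branch gene moved on the scale of ppat-1 or atic-1: the upper bound of the fold was 1.29 for adss-1 and 1.03 for gmps-1.

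Salvage of hypoxanthine and guanine depends on the phosphoribosyltransferase of hprt-1 (chromosome I, 14657355 to 14661495, plus strand). Control libraries had 1812, 1725 and 1763 expected counts, and caffeine libraries had 2452, 3068 and 2728. The groups did not overlap, and the controls were tightly grouped. CPM went from 44.1 ± 0.722 to 66.7 ± 3.82 (± SD, n = 3 each), a 1.51-fold rise (95% interval 1.37 to 1.67). The log2 fold change was 0.60 (SE 0.06) and the edgeR adjusted p 0.000394. The rise passed the test in all 12 alternatives.

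Adenine is salvaged by the phosphoribosyltransferase of aprt-1 (chromosome I, 5678638 to 5679862, plus strand). It had 36.9, 42.1 and 38.9 CPM in control and 42.4, 45.1 and 45.4 with caffeine. Caffeine libraries lay above controls by a narrow margin, since control library 2 and caffeine library 1 nearly met. The log2 fold change of 0.17 (95% interval 0.01 to 0.33) did not pass, with an edgeR adjusted p of 0.107. Without those 2 libraries, whose removal widens the gap by construction, it was 0.26 with an edgeR adjusted p of 0.0491. With any single library left out it did not pass. Its exons share 26 bases with unc-40 on the other strand, which fell by 0.24 on the log2 scale. The count ratio of hprt-1 to aprt-1 lay between 1.03 and 1.22 in control and between 1.46 and 1.57 with caffeine, so hprt-1 gained on aprt-1 in every caffeine library.

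Xanthine dehydrogenase, encoded by xdh-1 (chromosome IV, 14401114 to 14412894, minus strand), oxidises hypoxanthine to xanthine and xanthine to uric acid. In mammals this enzyme also acts on methylxanthines made from caffeine. The gene had 1072, 1080 and 921 expected counts in control and 660, 1066 and 711 with caffeine. Caffeine libraries 1 and 3 (17.0 and 17.3 CPM) lay below all controls (23.0 to 27.2), while caffeine library 2 (24.6) lay among them. The level was 25.6 ± 2.25 CPM in control and 19.6 ± 4.31 with caffeine (± SD, n = 3 each), and the log2 fold change was -0.38 (95% interval -0.72 to -0.04). It was not called, with an edgeR adjusted p of 0.0964. Both a library and the tool turned the call. Without caffeine library 2, whose removal widens the gap by construction, the log2 fold change was -0.58 and the edgeR adjusted p 0.0104. With any other single library left out xdh-1 did not pass, at an edgeR adjusted p from 0.0983 to 0.245. DESeq2 on all 6 libraries gave -0.40 with an adjusted p of 0.0462. Over the 12 alternatives the log2 fold change stayed below 0, from -0.58 to -0.24, and the adjusted p ran from 0.0104 to 0.382 in the edgeR and DESeq2 tests.

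The span of xdh-1 holds 66 annotated genes of piRNAs, short germline RNAs that chromosome IV carries in clusters. Of these, 29 lie on the strand of xdh-1 and 4 touch one of its exons. None of the 66 had a count in any library, in libraries made from polyadenylated RNA. Among tested genes outside the 8 with a mean of at least 100 counts, the 3 whose centred log2 CPM over the 6 libraries lay closest to that of xdh-1 were cpg-7, clc-15 and cup-16. Their root mean square differences from it were 0.0553, 0.0723 and 0.0840. cpg-7 fell by 0.43 on the log2 scale with an edgeR adjusted p of 0.0463 and passed in 4 of 12 alternatives, where its adjusted p ran from 0.0165 to 0.214. clc-15 and cup-16 were not called, at -0.44 and -0.27. Without caffeine library 2 cup-16 was lower by edgeR, at -0.47 with an adjusted p of 0.0216, and clc-15 passed in 0 of 12 alternatives. These 3 genes were picked for likeness to xdh-1 over the same 6 libraries. Their falls, and the call of cup-16 without caffeine library 2, follow from that choice. They are thus not independent of the pattern of xdh-1.

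Other genes of purine interconversion, salvage and breakdown changed in both directions. Of 10 entries 8 were matched and tested, of which 3 rose, 1 fell and 4 were not called. The median log2 fold change of the 8 was 0.03. Without control library 1 or control library 3, 1 gene of this list was higher. pnp-1, whose product is a purine nucleoside phosphorylase that frees bases from nucleosides, had 2064, 2204 and 1796 expected counts in control and 1359, 1554 and 1388 with caffeine. All caffeine libraries lay below all controls. Its log2 fold change was -0.53 (SE 0.08) with an edgeR adjusted p of 0.00328, and it passed in all 12 alternatives. adah-1, an adenosine deaminase homologue by its symbol, rose from 39.7 ± 2.97 to 55.3 ± 4.02 CPM (± SD, n = 3 each), with a log2 fold change of 0.48 (SE 0.08), and passed in all 12 alternatives too.

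Smaller rises were found for ampd-1 and gad-3. ampd-1, which encodes AMP deaminase, the enzyme that returns AMP to IMP, had a log2 fold change of 0.32 (SE 0.07) and an edgeR adjusted p of 0.0146. It did not pass without control library 1 (0.0618) or control library 3 (0.0547). Like F15E6.6, gad-3 was entered on the list under the xanthine dehydrogenase and aldehyde oxidase family. It had a log2 fold change of 0.41 (SE 0.10) and an edgeR adjusted p of 0.0227. It passed in 7 of 12 alternatives and in 2 of the 6 fits without a library, those without control library 2 or caffeine library 1, and its adjusted p otherwise reached 0.0752. The genes not called were gmpr-1 (-0.04), which encodes GMP reductase, adal-1 (0.06), an adenosine deaminase-like gene, adk-1 (0.00), which encodes adenosine kinase, and F15E6.6 (-0.30). Their 95% intervals on the log2 scale ran from -0.25 to 0.16, from -0.09 to 0.20, from -0.14 to 0.14 and from -0.60 to 0.00. Over the 8 members and both lists of other purine genes, 9 of 21 genes rose, 1 fell and 11 were not called. Over all tested genes 13.8% were higher and 10.5% lower.

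**Figure D3:**
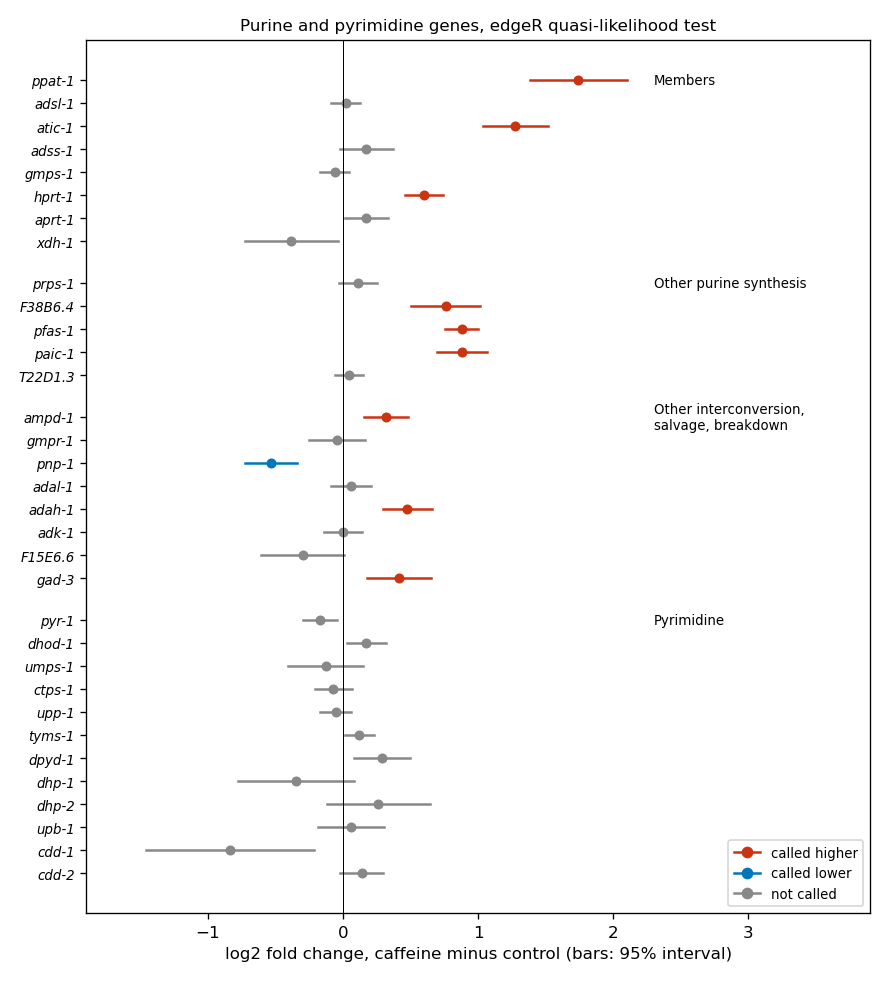
Log2 fold change, caffeine minus control, with 95% intervals for the 8 members, the other purine genes and 12 pyrimidine genes. Red marks genes called higher, blue lower and grey not called. The largest rises shown are those of ppat-1 at 1.74 and atic-1 at 1.28, and all 12 pyrimidine genes are grey.

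Pyrimidine nucleotides are made by a separate set of enzymes, which gives a comparison within the same libraries. Of 12 pyrimidine genes, 0 were called in the edgeR quasi-likelihood test, 5 had an unadjusted p under 0.05 (3 higher and 2 lower), and DESeq2 called 1 higher and 2 lower. Over all genes DESeq2 called 25.0%. The median log2 fold change of the 12 pyrimidine genes was 0.00. Without caffeine library 1, 3 were higher and 2 lower, and that fit called 32.8% of all genes, beside 24.3% with all 6 libraries. pyr-1, the multifunctional enzyme that opens pyrimidine synthesis, had a log2 fold change of -0.17 with an edgeR adjusted p of 0.0508. Its 95% interval lay below 0, and it was among the 2 lower at an unadjusted p under 0.05, beside the 3 higher. No test compared the purine list with the pyrimidine list. Genes of nucleotide kinases, ribonucleotide reductase and dUTPase had 0 of 6 called by edgeR, 1 at an unadjusted p under 0.05 and 1 by DESeq2, with a median log2 fold change of -0.05. Without caffeine library 1, 2 of these were lower.

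Purine synthesis draws formyl groups from the folate cycle and nitrogen from glutamine and glycine. Of 10 genes of the folate cycle and of glycine cleavage, 4 rose and 0 fell, with a median log2 fold change of 0.16. The shares over all tested genes were 13.8% higher and 10.5% lower. folt-2, a folate transporter gene by its symbol, had the largest rise at 2.01 (SE 0.48), on 74 to 148 expected counts in controls against 319, 224 and 801 in the caffeine group. Caffeine library 3 stood apart there, and without it the log2 fold change was 1.298. Without control library 1 or control library 2 the edgeR adjusted p of folt-2 was 0.0654 or 0.066. The number of genes higher on this list dropped to 1 without control library 1 or without control library 2 and to 2 without caffeine library 3. Of 5 glutamine synthetase genes 1 rose, gln-3, from 50.2 ± 5.19 to 96.0 ± 19.5 CPM (± SD, n = 3 each), with a log2 fold change of 0.94 (SE 0.14). gln-3 passed in all 12 alternatives. None of the 5 was lower by edgeR or DESeq2, also at an unadjusted p under 0.05, but 1 was lower without caffeine library 1.

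Xanthine dehydrogenase needs a molybdenum cofactor. Of 7 matched genes on the list for that cofactor, which also holds the sulfite oxidase gene suox-1, 0 rose and 1 fell by edgeR (1 and 1 at an unadjusted p under 0.05, 0 and 1 by DESeq2). The median log2 fold change was 0.03, and 1 gene was higher without caffeine library 1. The gene that fell was moc-2, at -0.46 (SE 0.11), with an edgeR adjusted p of 0.0181. It passed in 6 of 12 alternatives, and not without control library 1, 2 or 3 or caffeine library 3, where the adjusted p lay between 0.0503 and 0.0627. Among 7 nucleoside transporter genes of the ent family, 1 rose and 2 fell, beside 13.8% and 10.5% of all tested genes. ent-7 rose by 0.84 on the log2 scale (SE 0.15) from 5.28 ± 0.425 to 9.46 ± 1.61 CPM (± SD, n = 3 each). ent-4 had the larger fall, at -0.50 (SE 0.11), which did not pass without control library 1 (edgeR adjusted p 0.0569), and without that library 1 gene of the family was lower.

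Levels were compared between genes as CPM per kilobase of exon. In control libraries adss-1 was highest at 117 ± 4.23 (mean ± SD, n = 3). gmps-1 (64.4), aprt-1 (59.8), adsl-1 (55.3) and hprt-1 (47.3) followed. Lower still were atic-1 at 9.40 ± 0.976, xdh-1 at 6.16 ± 0.542 and ppat-1 at 2.27 ± 0.296 (mean ± SD, n = 3). gmps-1 and aprt-1 overlapped between libraries, at 63.5 to 65.5 and 56.1 to 64.01, and the other neighbours in this order did not overlap. Per kilobase of coding sequence hprt-1 (68.7) stood above adsl-1 (60.3), so the order of these genes rests on the length used. The most strongly raised genes, ppat-1 and atic-1, were thus among the 3 least abundant of the 8 per length in control.

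With caffeine hprt-1 reached 71.5 ± 4.09 CPM per kilobase of exon (mean ± SD, n = 3), next below adss-1, and overlapped aprt-1 at 67.4 ± 2.54. atic-1 reached 22.8 ± 2.32. ppat-1 reached 7.58 ± 1.25 and lay above xdh-1, at 4.72 ± 1.04 (mean ± SD, n = 3), in every library, the reverse of their order in control. The spread of adsl-1 between replicates was the smallest of the 8, with a coefficient of variation of 0.573% in control and 0.618% with caffeine, while that of xdh-1 with caffeine was 21.96%.

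**Figure D4:**
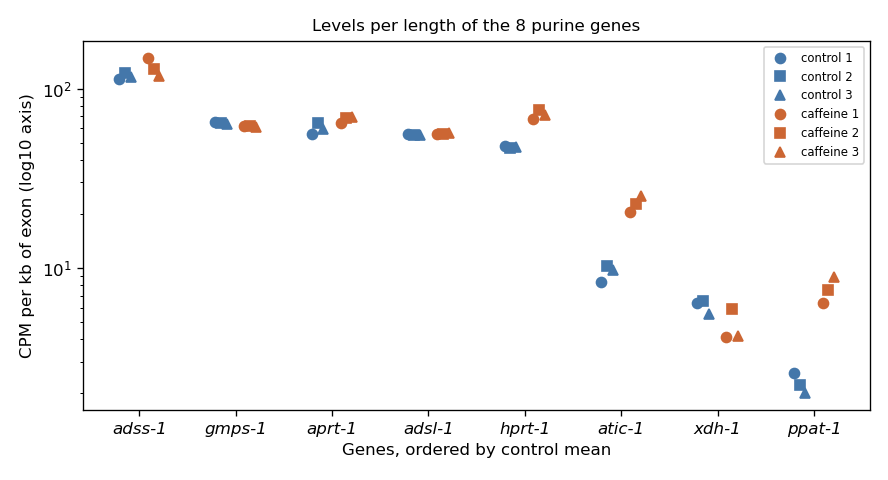
CPM per kilobase of exon (vertical log10 axis) of the 8 purine genes in each library, ordered by the control mean. In control ppat-1 is lowest, at 2.0 to 2.58, and with caffeine it passes xdh-1, at 6.36 to 8.86 against 4.09 to 5.92.

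Sperm marker sums were highest in control library 2 and, within the caffeine group, in caffeine library 1. Without both libraries, the log2 fold change was 1.84 for ppat-1, 1.41 for atic-1 and 0.63 for hprt-1. Their edgeR adjusted p was 0.00385, 0.0018 and 0.00446. Caffeine library 1 was the lowest of its group for each of these genes, and control library 2 was the highest control for atic-1. Leaving out caffeine library 1 thus widens these gaps by construction, as does leaving out control library 2 for atic-1. The same fit called pfas-1 and paic-1 higher, with log2 fold changes of 0.90 and 0.84. It also called aprt-1 higher, at 0.26 with an edgeR adjusted p of 0.0491. In this fit xdh-1 moved to -0.24 (edgeR adjusted p 0.382) from -0.38, and adss-1 to 0.11 from 0.17, neither called. For xdh-1 the gap narrows by construction, since its lowest caffeine library and its highest control were left out.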

How the data were processed

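Per the file headers, the authors deposited expected counts per WormBase ID and library, an estimate of reads per gene not scaled by depth or length. The submitters' processing notes name STAR 2.7.0e and RSEM 1.3.1 and the builds WBcel235 and ce11, without giving their roles. Per the labels, libraries were stranded, from polyadenylated RNA, and read from both ends. Strand use in counting is not given in the sources used here. All 8 members had whole values in every library.

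Expected counts were rounded. edgeR 4.0.16 in R 4.3.3 was used with filterByExpr (minimum count 10, minimum total 15), TMM scaling and the quasi-likelihood test on all 6 libraries, with Benjamini-Hochberg adjustment over 14200 genes. A gene was called at an adjusted p under 0.05. SE is the log2 fold change divided by the square root of F, and 95% intervals use it. Likeness to xdh-1 used log2 CPM with a prior count of 2. Alternatives were 2 other scalings, no filter, DESeq2 1.42.0, a replicate block, each library left out, and control 2 with caffeine 1 left out. The fit was also run on simulated counts with known changes, drawn from its own means, dispersions and library sizes. That run checks the code, not how well the model holds for these data.

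Coordinates, exon lengths and overlaps come from the Ensembl 115 annotation of WBcel235, and symbols from a table of gene names and RefSeq. Of 64 entries on the other lists, 60 were matched. Members and lists were chosen with earlier results of these data known. All 8 members are named, as are the other purine genes, the called gene with the largest change in each direction on every other list, and the 3 genes most like xdh-1. Other genes named (pyr-1, suox-1, nifk-1, arp-11, ilys-4, unc-40, asp-1, snb-1 and pal-1) were chosen after their values were seen. Promoter motifs were planned but not analysed here.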

Additional observations from a re-analysis of the deposited data

How the results depend on the processing

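Directions of the 8 members were kept in all 12 alternatives, and 3 members were higher in each except the fit without control library 2 and caffeine library 1, where aprt-1 joined them. The number of members lower was 1 with DESeq2 and ran from 0 to 1 with a library left out. Over all genes, leaving out a library gave between 1209 and 2264 higher and between 698 and 2512 lower, both lowest without control library 2 and highest without caffeine library 1. With 2 libraries left in a group, fewer calls follow also from fewer samples. Libraries share replicate numbers across groups, but the deviations of same-numbered libraries correlated at -0.18, -0.16 and 0.25, so the numbers were not taken as pairs, and only library 3 of each group correlated best with its own number. With the replicate block 1496 genes were higher and 1074 lower, 3 members rose, and gad-3 (0.0514), moc-2 (0.0504) and cpg-7 (0.0573) lost their call by edgeR adjusted p. The 8 members had at least 128 expected counts in every library.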
